A study of Drosophila melanogaster with 3 samples.

Results

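The regions described here are the divergent promoter summits of Sox14 in Drosophila melanogaster, places where a Sox14 binding peak has its highest point beside the starts of neighbouring genes that are transcribed away from each other. A summit was a member if it lay within 500 bp of annotated transcription start sites of at least 2 protein-coding genes on opposite strands. Of the 9316 peaks in the optimal dm6 list, the authors' list that passed their reproducibility threshold, 1110 met this rule. They were compared with 2700 optimal summits near coding starts on 1 strand only, called single-strand, and with 5506 optimal summits that had no coding start within 500 bp. The same classes were formed in the relaxed list of the pooled replicates, which keeps weak peaks as well, where 1683 of 30000 summits were divergent.

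Sox14 binding was mapped by chromatin immunoprecipitation followed by sequencing (ChIP-seq). There was 1 group of animals, a stable transgenic line that expresses Sox14 with GFP at its C terminus, sampled as whole white prepupae of both sexes mixed and of unknown age. An antibody to GFP recovered chromatin that had been sonicated to pieces of 200 to 800 bp, and 3 biological replicates gave 1 library each. No untagged or untreated animals were analysed here, every tissue of the animal is averaged, and no RNA was measured, so the tissue label could not be checked against marker genes. Each peak carries a signal value from the authors. The scale of the signal differs between lists, so it was used only within a list. Read depth is unknown, and the intervals below are 95% intervals that cover only the counting of peaks or genes.

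Sox proteins are transcription factors that bind the minor groove of DNA through an HMG box and bend it, at sites built on the core ACAAT. The Sox14 gene is induced by the steroid hormone ecdysone, which triggers metamorphosis. In the compact fly genome many genes stand head to head, so that one short stretch of DNA holds the promoters of both. Such promoters often serve genes of general cell upkeep. In flies they often contain binding sites of DREF, which binds the DNA replication-related element (DRE) TATCGATA, of the insulator protein BEAF-32, which recognises CGATA, and of M1BP, which recognises the core promoter element called motif 1 (GGTCACACT).

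The DNA between the starts of 7 gene pairs is given as examples. It was read from the RefSeq sequence of genome Release 6 (dm6), plus strand, from the base after the start of the gene on the minus strand to the base before the start of the gene on the plus strand. These pairs came from 281 intervals that were 40 to 300 bp long, held the summit and no exon, and were not on a chromosome arm left out of this display. Capitals mark the Sox core ACAAT, the related Sox word ACAAAG, the BEAF-32 core CGATA and motif 1, GGTCACACT, each in either direction. On the other strand the Sox core reads ATTGT, the related word reads CTTTGT, the BEAF-32 core reads TATCG and motif 1 reads AGTGTGACC. Overlapping matches on opposite strands make up the palindrome TATCGATA. The first 3 belong to 3 of the strongest members. Tcs5 encodes a kinase subunit of the complex that modifies transfer RNA, and CHMP2B a subunit of the membrane-cutting ESCRT-III complex (chr3L:5139396-5139618, summit at base 110, rank 19 of the optimal list). Art3, an arginine methyltransferase gene, is paired with mRpS10, a gene of the mitochondrial ribosome (chr3R:15229409-15229664, summit at base 127, rank 20). Atat encodes a tubulin acetyltransferase and Shc an adaptor of receptor tyrosine kinases (chr3L:9426759-9427009, summit at base 131, rank 45). Coq4, a gene of ubiquinone synthesis, and CG32176 are shown for their 3 ACAAT matches (chr3L:17433622-17433867, summit at base 149, rank 187). The Golgi gene fws and Lamtor3, which encodes a subunit of the lysosomal Ragulator complex, are shown for the DRE (chr2L:17481030-17481230, summit at base 133, rank 222). For motif 1, the gene klar, whose product positions nuclei, is shown with BORCS6 (chr3L:540615-540850, summit at base 221, rank 1702). CG17652 and CG17646 belong to the member of lowest signal that could be shown (chr2L:1732357-1732523, summit at base 19, rank 9163).
Tcs5/CHMP2B: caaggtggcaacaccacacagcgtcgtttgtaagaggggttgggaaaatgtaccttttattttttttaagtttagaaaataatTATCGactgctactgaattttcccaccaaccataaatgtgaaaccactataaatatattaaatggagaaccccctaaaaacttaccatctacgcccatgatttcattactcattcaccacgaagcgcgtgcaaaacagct
Art3/mRpS10: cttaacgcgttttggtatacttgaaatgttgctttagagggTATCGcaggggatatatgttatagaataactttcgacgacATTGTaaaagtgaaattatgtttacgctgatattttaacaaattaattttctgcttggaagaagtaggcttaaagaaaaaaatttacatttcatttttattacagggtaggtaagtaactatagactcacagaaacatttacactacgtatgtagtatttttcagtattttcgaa
Atat/Shc: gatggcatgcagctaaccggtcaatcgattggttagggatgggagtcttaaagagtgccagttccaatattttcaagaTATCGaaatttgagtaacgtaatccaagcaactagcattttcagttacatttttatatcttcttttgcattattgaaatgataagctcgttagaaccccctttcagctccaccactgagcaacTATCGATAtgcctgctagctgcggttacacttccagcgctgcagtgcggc
Coq4/CG32176: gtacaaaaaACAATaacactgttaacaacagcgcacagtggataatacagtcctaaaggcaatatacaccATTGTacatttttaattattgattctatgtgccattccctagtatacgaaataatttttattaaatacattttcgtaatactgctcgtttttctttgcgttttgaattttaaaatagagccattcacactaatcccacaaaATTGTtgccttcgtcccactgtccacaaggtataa
fws/Lamtor3: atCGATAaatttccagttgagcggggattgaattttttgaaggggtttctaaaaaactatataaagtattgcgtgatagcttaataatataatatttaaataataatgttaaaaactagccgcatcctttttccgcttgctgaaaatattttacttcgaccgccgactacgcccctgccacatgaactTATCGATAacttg
klar/BORCS6: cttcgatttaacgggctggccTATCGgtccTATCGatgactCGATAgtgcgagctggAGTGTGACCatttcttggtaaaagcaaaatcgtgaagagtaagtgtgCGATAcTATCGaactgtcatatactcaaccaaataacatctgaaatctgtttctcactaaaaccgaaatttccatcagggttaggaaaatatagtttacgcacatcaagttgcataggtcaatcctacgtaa
CG17652/CG17646: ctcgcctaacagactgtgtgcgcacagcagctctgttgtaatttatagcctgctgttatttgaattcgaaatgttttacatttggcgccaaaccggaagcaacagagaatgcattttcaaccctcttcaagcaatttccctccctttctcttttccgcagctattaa

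The ACAAT core was found in 2 of these 7 intervals, once between Art3 and mRpS10 and 3 times between Coq4 and CG32176. CGATA was found in 5 of them. The intervals of Coq4, fws and klar were chosen for a word, so these counts do not give its frequency between starts. The intervals of CG3437 and CG3552 and of Mnat9 and CG1792, also among the strongest, had none of the marked words and were not shown. The interval of CG17652 and CG17646 had none of the marked words. A match is a run of letters and not a shown binding site.

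Most members stood between the starts of their genes. In 1083 of the 1110 members the nearest starts were head to head, and in the other 27 the transcripts overlapped at their starts. The head-to-head starts were a median of 277 bp apart (quartiles 158 and 376.5, range 1 to 970 bp). The summit lay between them in 812 of 1083 members, or 74.98% (Wilson interval 72.3 to 77.5%). In the replicates' own top 9316 peaks this share was 81.4%, 67.9% and 74.9% for replicates 1, 2 and 3 (mean 74.8% ± 6.75, SD, n = 3), so it was highest in replicate 1 and lowest in replicate 2.

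The share between the starts grew with the distance between them, as did the room there. It was 35.3% of 184 members for starts up to 100 bp apart, 58.8% of 131 for starts above 100 and up to 200 bp apart, 80.8% of 312 up to 300 bp and 89.5% of 363 up to 500 bp. Of the positions that the rule allows around each pair, the stretch between the starts makes up 6.536%, 17.0%, 34.4% and 63.0% in the same order of distances. In each of these 4 classes the share of summits was above the share of positions. Beyond 500 bp the rule itself places every summit between the starts. The 549 head-to-head pooled summits that did not reach the optimal list lay between the starts in 344 cases, or 62.7% (58.5 to 66.6%).

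**Figure D1:**
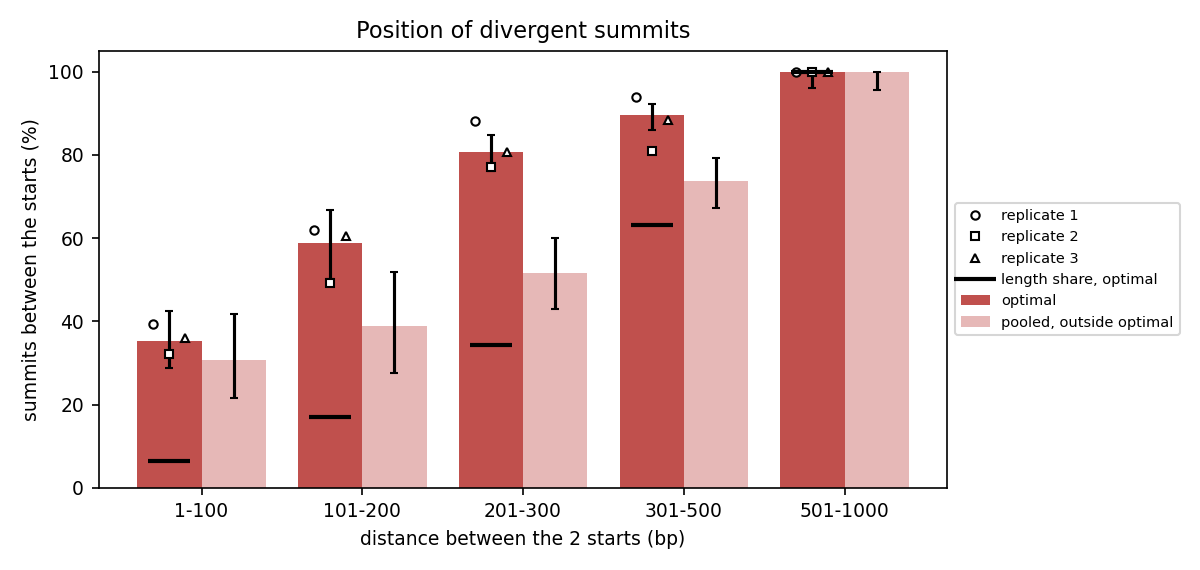
Share of head-to-head divergent summits that lie between the 2 starts (vertical axis, %), by the distance between the starts in bp (horizontal axis). Dark bars are optimal summits, pale bars are pooled relaxed summits outside the optimal list, with Wilson intervals, open symbols are the replicates' own top peaks, and the black dashes give the share of allowed positions that lie between the starts. Optimal bars run from 35.3% to 100%, the last class being fixed by the rule.

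A member lay a median of 71 bp from its nearest coding start (quartiles 32 and 115.75 bp), against 127 bp (51 and 250 bp) for a single-strand summit. The farther of the nearest starts on the 2 strands was a median of 210.5 bp away. Of the 2700 single-strand summits, 1915 (70.9%) lay upstream of their start, and 137 (5.07%) had a noncoding start on the opposite strand within the window. Just 2 coding genes had a start in the window of 1054 members, and more than 2 in that of 56. Counted by nearest starts, the members fell on 992 gene pairs, 874 with 1 member and 118 with 2. The 2 members of such a pair were a median of 203 bp apart, never closer than 199 bp and at most 2460 bp apart. What sets this least distance was not tested. The strongest such pair, CG3437 and CG3552, had summits ranked 43 and 1826 in the optimal list. CG10747 and Pyroxd1, which encodes an oxidoreductase, had summits ranked 75 and 8978. In each of these pairs the 2 summits lay in the same peak interval, which the list holds once per summit.

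The 500 bp limit touched few summits. The farther start was 490 to 500 bp away for 11 members. The strongest of them, between app, which encodes a palmitoyltransferase, and CG32100, had a signal of 515 at 495 bp, and the weakest, between rux, an inhibitor of the cell cycle, and MCTS1, had 92.9 at 490 bp. Widening the limit by 10 bp would have added 4 summits, among them one between CG10804 and CG10802 (signal 262, farther start at 506 bp) and one between RpS6, a ribosomal protein gene, and bys (signal 145, at 509 bp).

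Divergent summits reached the optimal list more often than single-strand summits did. Of the 1683 divergent summits in the pooled relaxed list, 1110 were optimal, or 66.0% (63.7 to 68.2%), against 2700 of 6548 single-strand summits, or 41.2% (40.05 to 42.4%). Over all pooled summits the share was 31.1%, and it was 25.3% for summits with no coding start in the window. The difference between divergent and single-strand summits was 24.7 percentage points (Newcombe interval 22.1 to 27.2). Divergent summits made up 11.9% of the optimal peaks and 2.77% of the pooled peaks outside that list. Since the optimal list is the top of the pooled list by signal, this share is a statement about signal rank.

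Each replicate was then ranked by its own signal, with its top 9316 of 30000 relaxed peaks taken as called. The called share of divergent summits was 70.0% in replicate 1, 57.6% in replicate 2 and 65.0% in replicate 3, against 42.4%, 40.6% and 41.6% of single-strand summits. The ranges of the 2 classes did not overlap. The differences were 27.6, 17.0 and 23.4 points (mean 22.7 ± 5.33, SD, n = 3), all of 1 sign. An exact two-sided sign-flip permutation test over the 3 replicates gave p = 0.25, the smallest value that 3 replicates allow, so this test cannot reach 0.05. Replicate 2 had the lowest share in both classes and the smallest difference.

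**Figure D2:**
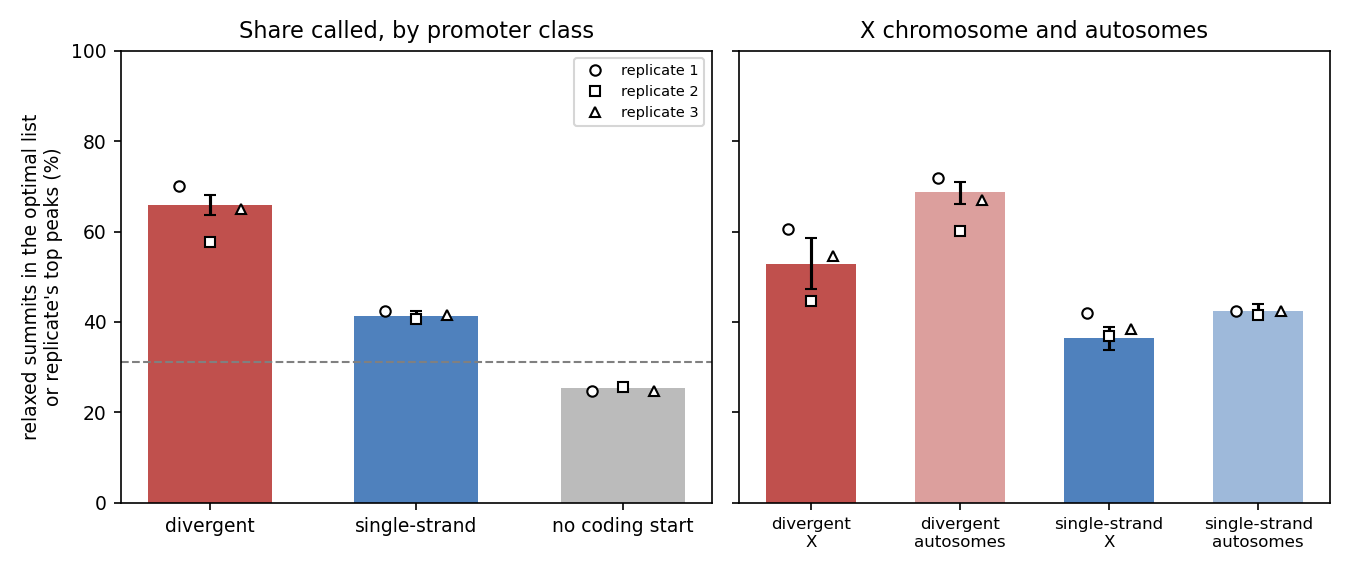
Left, percentage of relaxed summits that are called (vertical axis) for divergent, single-strand and other summits, with bars for the pooled list, Wilson intervals, open symbols for replicates 1 to 3 and a dashed line at the 31.1% of all pooled summits. Right, the same for divergent and single-strand summits on the X chromosome and the autosomes: X-linked divergent summits stand at 52.9% and autosomal ones at 68.7%.

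Within the optimal list, too, the members stood high. Their median signal was 195, against 161 for single-strand and 158 for other summits. As a percentile of the optimal list, where 100 is the highest signal, the median member was at 61.1 and the median single-strand summit at 49.4, a difference of 11.7. In the replicates' top peaks this difference was 13.8, 6.40 and 10.8 (mean 10.3 ± 3.73, SD, n = 3), again positive in 3 of 3 and with p = 0.25 in the exact sign-flip permutation test, the smallest possible. It was 5.65 without replicate 1, 7.29 without replicate 3, and 20.1 with a promoter window of 250 bp. There were 158 members among the 1000 highest optimal peaks and 64 among the 1000 lowest. Single-strand summits numbered 321 and 300 at the same ends.

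The pooled list was cut by signal into 10 classes of 3000 peaks. Divergent summits made up 16.3% of the highest class, 4.03% of class 5 and 0.900% of the lowest. Single-strand summits made up 28.6%, 22.8% and 13.5% of the same classes. The divergent class fell at every step down the list, while the single-strand class stayed between 27.2% and 29.2% over the highest 4 classes.

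**Figure D3:**
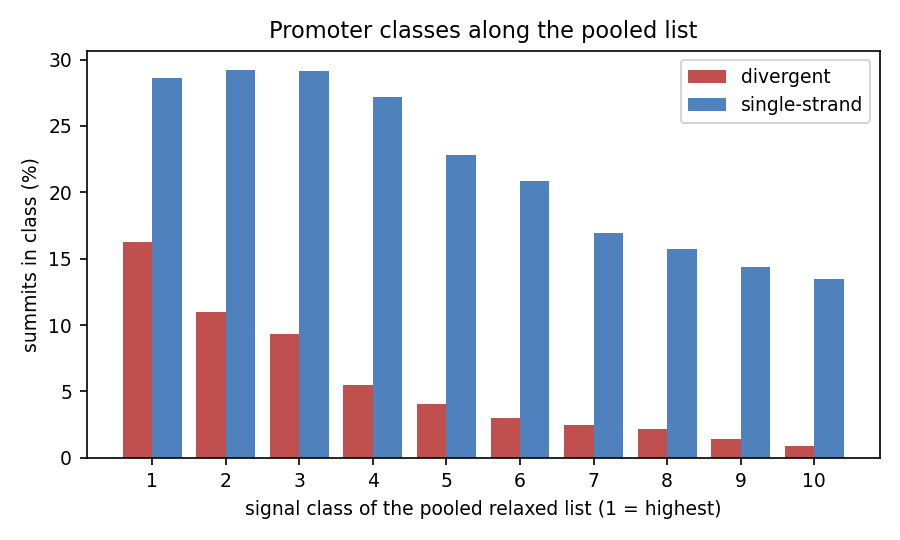
Percentage of summits that are divergent or single-strand (vertical axis) in each of 10 equal classes of the pooled relaxed list, ordered by signal with the highest at the left (horizontal axis). The divergent share goes down at each step, to 0.900% in the lowest class.

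The 25 strongest members were chosen by the pooled signal, which was made from the same 3 libraries, so their ranks in each are given as a description. All 25 of the strongest had a peak in each replicate, with ranks no worse than 129, 211 and 137 in replicates 1, 2 and 3. Between Tcs5 and CHMP2B the signal was 788, 609.7 and 732 in the 3 replicates and its ranks were 17, 20 and 19. At Art3 and mRpS10 the signal was 761, 542 and 695. Atat and Shc had 606, 397 and 503. Signals of different lists have no common scale, so these values are not to be compared between replicates.

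The strongest members lay at genes of varied roles. The mitochondrial ribosomal gene mRpL23 shared a summit of signal 1438 with CG9004, and the mitochondrial protease gene Lon shared one of signal 1247 with PIG-F, which acts in making GPI anchors. CIA30, an assembly factor of respiratory complex I, stood beside CG7601 at 1328, and Elp5, a subunit of the Elongator complex, beside CG1275 at 1271. Mkk4, a kinase upstream of the stress kinase JNK, had a summit of 1402 with SLIRP2, and POSH, a scaffold protein of the JNK pathway, had one of 1056 with Ns2. On the X chromosome the strongest was that of Stt3A, a catalytic subunit of the oligosaccharyltransferase, and bves, with 1263. The strongest summit of the overlapping kind lay at CG4741 and Adck1, whose transcripts overlap by 141 bp, with a signal of 1105 and rank 107.

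At the weak end, the 5 lowest members ran from a signal of 91.3 at CG17652 and CG17646 to 90.1 at CG14036 and the histone gene His3.3A. Between them lay CG16890 and Eato, CG3309 and the DNA repair gene XRCC1, and spi, which encodes an EGF receptor ligand, with msb1l. The strongest divergent pooled summit outside the optimal list, between pix and the signal recognition particle gene Srp68, had 89.7, and 4 more followed down to 89.2 at CG32576 and caz. These were Rhau and the formin gene dia, Abi and twf, ArfGAP3 and CG32452, and CG32576 and caz. No gap in signal separated the members from the summits left out.

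Members recurred in all 3 replicates more often than single-strand summits, but not in each replicate taken alone. A replicate peak counted when its summit was within 100 bp and among that replicate's top 9316. All 3 replicates had such a peak at 702 of 1110 members, or 63.2% (60.4 to 66.0%), against 1508 of 2700 single-strand summits, or 55.9% (53.97 to 57.7%), and 58.6% of all optimal summits. The difference was 7.39 points. Taken alone, replicates 1, 2 and 3 had such a peak at 86.5%, 75.9% and 89.5% of members, against 76.6%, 79.2% and 85.9% of single-strand summits, so replicate 2 went the other way. The optimal list was itself chosen by agreement of these libraries, and stronger peaks recur more often. Split by signal into 4 equal classes of the optimal list, from strongest to weakest, the shares were 93.8%, 79.2%, 41.3% and 4.92% for members, against 96.4%, 77.4%, 45.6% and 5.12% for single-strand summits. Within each class the interval of the difference included 0. With the replicates' full relaxed lists of 30000 peaks the difference was -0.301 points, and without replicate 1 it was 0.943.

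The libraries did not rank the members alike. The median rank of members with a peak in the replicate was 3095.5 in replicate 1, 4536.5 in replicate 2 and 3571 in replicate 3. In the same order, 78, 92 and 31 members had no peak in the replicate's relaxed list and are not in these medians. Of 948 members with a peak in replicates 1 and 2, 712 (75.1%) ranked better in replicate 1, against 1189 of 2324 single-strand summits (51.2%). Among members with a peak in every replicate, the most uneven included one of the ecdysone pathway. Members with no peak in a replicate were not ranked for unevenness. At Hr3, which encodes a nuclear receptor induced by ecdysone, and Hdc, the histidine decarboxylase gene, the ranks were 853, 20174 and 1606 in replicates 1, 2 and 3. At Sf3b6, a splicing factor gene, and Tnpo, a nuclear import receptor gene, they were 963, 17497 and 1800. The reverse was seen at CG13484 and the formin gene Frl, with 18569, 1480 and 14295. These 3 were chosen for their disagreement.

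Members on the X chromosome ranked lower than those on autosomes. Of the divergent pooled summits, 154 of 291 on the X were optimal, or 52.9% (47.2 to 58.6%), against 956 of 1392 on the autosomes, or 68.7% (66.2 to 71.1%). Single-strand summits stood at 36.4% on the X and 42.5% on the autosomes. The median signal of optimal members was 155 on the X and 203 on the autosomes, whereas single-strand summits had 158 and 161. In the 3 replicates' own lists the X share of divergent summits differed from the autosomal share by -11.2, -15.5 and -12.6 points (mean -13.1 ± 2.19, SD, n = 3). For single-strand summits the differences were -0.462, -4.50 and -3.92 points (mean -2.96 ± 2.18). The divergent difference minus the single-strand one was -10.7, -10.96 and -8.67 points, of 1 sign in 3 of 3 replicates, with p = 0.25 in the exact two-sided sign-flip permutation test, the smallest possible. The animals were males and females pooled, so the X chromosome was present in fewer copies than each autosome, and the part of copy number in this difference was not tested. Divergent summits made up 23.5% of the optimal promoter summits on the X and 27.0% to 33.5% on arms 2L, 2R, 3L and 3R. They were less common on the X in the pooled relaxed list too. It held 291 divergent and 1380 single-strand summits on the X, against 1392 and 5168 on the autosomes. The small chromosome 4 held 3 members.

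Starting from the genome rather than from the peaks, 2412 head-to-head pairs of coding genes had mutually nearest starts no more than 1000 bp apart. An optimal summit lay within 500 bp of a start of 1266 pairs, or 52.5% (50.5 to 54.5%). Of 8804 coding genes with no opposite coding start within 1000 bp, 1705 had one, or 19.4% (18.6 to 20.2%), and over all 13945 coding genes the share was 29.6%. A pair offers more sequence than a single gene. Counted per gene, 2284 of 4824 genes in pairs had an optimal summit, or 47.3%, which is 28.0 points above the genes without an opposite start. In 1018 pairs both genes had an optimal summit within 500 bp. Where the starts are close, a single summit can lie within 500 bp of both and so count for both genes. In the replicates' top peaks the pairs exceeded the other genes by 36.0, 32.1 and 35.8 points (mean 34.7 ± 2.18, SD, n = 3), with p = 0.25 in the exact sign-flip permutation test, the smallest possible. Counted per gene, these differences were 31.6, 26.0 and 30.5 points. The bound share of pairs was 54.4%, 43.3%, 55.9%, 57.8% and 47.8% for starts up to 100, 200, 300, 500 and 1000 bp apart, with no steady course. In the replicates' top peaks the shares of these classes ran from 45.5% to 64.2%.

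Gene groups defined by symbol differed in how often they stood at a member. The windows of the members held starts of 2034 of the 13945 coding genes, or 14.6%, which is the level against which each group is read. A member needs an opposite coding start, so a group's share also follows how many of its genes stand in head-to-head pairs. Of all coding genes 34.6% did, and 47.3% of these had an optimal summit. Mitochondrial ribosomal proteins had the highest share of the 16 groups in the optimal list, with 34 of 73 genes (46.6%) at a member. In the replicates' own top peaks it was 36, 31 and 38 of 73. Of these genes, 58 stand in head-to-head pairs and 35 of the 58 had an optimal summit, against 1 of the 15 without an opposite start. The strongest were mRpS23, which shares its summit of signal 2444 with CenG1A, and mRpS10. Genes of autophagy, in which cells digest their own contents, had 9 of 20 at a member (45.0%), and 11, 7 and 9 of 20 in the replicates. Of the 14 autophagy genes in pairs, 11 had an optimal summit (78.6%). The order of the groups changed between replicates, with autophagy above the mitochondrial ribosome in replicate 1 (55% against 49.3%) and nucleoporins above it in replicate 3 (57.1% against 52.1%). Atg18a shares a summit of 528 with ERR, a nuclear receptor gene of carbohydrate metabolism, and Atg7, the enzyme that activates ubiquitin-like proteins of autophagy, shares one of 419 with Sec6.

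Ribosomal proteins of the cytoplasm had 32 of 92 genes (34.8%) at a member, led by RpL7, with a summit of 659.9 shared with Ripalpha, and by RpL34b, with 491. Unlike the mitochondrial group, those outside pairs were often bound as well, 24 of 37. Of the 54 in pairs, 41 had an optimal summit (75.9%). Mediator and TFIID, complexes that help RNA polymerase II start, had 14 of 40 (35.0%). Of their 30 genes in pairs 15 had an optimal summit (50%), near the share of all paired genes. Their strongest member, at Taf12 and the haem oxygenase gene Ho, had a signal of 859. Aminoacyl-tRNA synthetases had 11 of 33 (33.3%), led by SerRS with 613. Of their 23 genes in pairs 11 had an optimal summit (47.8%), near the 47.3% of all paired genes. Rab GTPases, which direct vesicle traffic, had 10 of 30 (33.3%). Of the 17 Rab genes in pairs 14 had an optimal summit (82.4%). Among the 10 was Rab7 of late endosomes, whose summit had no peak in replicate 1 within 100 bp and ranked 1008 and 1814 in replicates 2 and 3. Nucleoporins had 7 of 21 (33.3%), with Nup98-96 and mbc at 597, and 8, 7 and 12 of 21 in the replicates. Most of them, 18, stand in pairs, and 7 of the 18 had an optimal summit (38.9%), below the share of all paired genes.

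Proteasome subunits had 14 of 48 genes at a member (29.2%), the strongest at Hat1, a histone acetyltransferase gene, and Rpn5, with 452. Oxidative phosphorylation had 24 of 88 (27.3%). Its strongest member lay at ND-ASHI, a subunit of complex I, and Fum1, the fumarase of the citric acid cycle, with 774. The vacuolar ATPase, which acidifies organelles, had 7 of 33 (21.2%), led by Vha100-2 and the SNARE gene Vti1b at 1126. DNA replication had 3 of 15 (20%), with Mcm5 and Mcm2, subunits of the replicative helicase, at 236 and 213. Translation initiation factors had 6 of 44 (13.6%), close to all genes. Of the genes in pairs, an optimal summit was found for 14 of 26 of the proteasome (53.8%) and 24 of 44 of oxidative phosphorylation (54.5%). It was found for 8 of 14 of the vacuolar ATPase (57.1%), 10 of 21 initiation factors (47.6%) and 3 of 9 of DNA replication (33.3%). The share of all paired genes was 47.3%.

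At the other end, none of 110 cuticle protein genes and 2 of 179 chemoreceptor genes (1.12%) were at a member. The 2 were Gr63a, a receptor for carbon dioxide, which shares its summit with Lamtor4, and Ir60e. Of the 9 cuticle genes in head-to-head pairs none had an optimal summit, and of the 26 chemoreceptor genes in pairs 2 had one (7.69%), against 47.3% of all paired genes. None of the 99 cuticle and 152 chemoreceptor genes without an opposite start had one, against 19.4% of all such genes. Regulators that respond to ecdysone had 3 of 20 at a member (15%). An optimal summit lay within 500 bp of 17 of the 20 (85%), against 29.6% of all coding genes. Of the 3, usp encodes the partner of the ecdysone receptor and had members of signal 311 and 205 within 500 bp of its starts. Hr3 had one of 268, and the nuclear receptor gene Hr39 shared one of 197 with CG31626, ranked 3665, 3816 and 4097 in replicates 1, 2 and 3. Hr39 was named after its values were seen. Most of this group, 17 of 20, have no opposite coding start nearby. Of the 17, 14 had an optimal summit (82.4%), against 19.4% of all such genes. The 3 genes of the group in pairs all had one, against 47.3% of all paired genes. Genes known only by a CG number had 621 of 6097 at a member (10.2%).

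**Figure D4:**
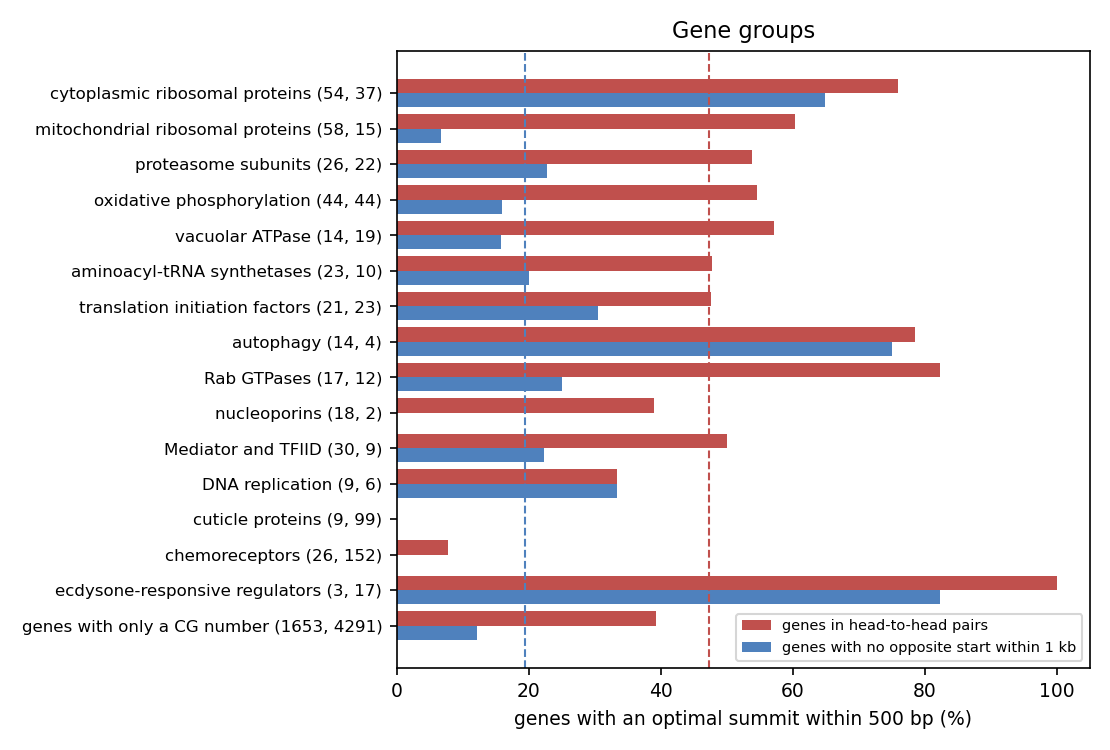
Percentage of genes with an optimal summit within 500 bp (horizontal axis) for 16 gene groups (rows), in head-to-head pairs (red) and with no opposite coding start within 1000 bp (blue), with the number of genes of each kind in brackets. Dashed lines give all coding genes in pairs, 47.3%, and without an opposite start, 19.4%; mitochondrial ribosomal proteins stand at 60.3% and 6.67%.

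The sequence at the members differed from that at single-strand summits. Windows reaching 50 bp to either side of the summits were searched for 13 words on both strands. The windows of members had a median GC content of 35.6%, against 39.6% for single-strand summits, and 49.5% against 42.6% in windows 1000 bp to the side. In the replicates' top peaks the medians were 33.7%, 37.6% and 36.6% at divergent summits, against 37.6%, 41.6% and 40.6% at single-strand summits. The words below were therefore also counted within a band of GC content. Among all hexamers, counted together with their reverse complements, the largest excess at members was that of TTAAAA, in 32.0% of member windows and 21.2% of single-strand windows.

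The BEAF-32 core CGATA was present in 338 member windows, or 30.5%, against 20% of single-strand windows and 15.6% of all optimal windows. The difference was 10.5 points (7.39 to 13.6) over the optimal list, and 6.50, 9.76 and 7.58 points in the replicates (mean 7.95 ± 1.66, SD, n = 3). It was 6.45 points at a promoter window of 250 bp, 6.06 for summits within 150 bp of a start, and 5.53 and 15.6 points in motif windows of 51 and 201 bp. In 50 bp bins around the summits, CGATA matches were most frequent in the central bin, with 27.2 per 100 members, against 17.2 per 100 single-strand summits. In windows 1000 bp to the side of members it was found in 12.1%, against 12.9% beside single-strand summits. The full DRE, TATCGATA, which contains CGATA on both strands, was in 6.04% of members, against 3.04% of single-strand and 1.73% of all optimal windows. Its difference was 3.00 points, and 1.95, 4.35 and 2.15 in the replicates. At a promoter window of 250 bp in place of 500 bp it was 0.580 points. Motif 1 was in 2.79% of members and 2.48% of single-strand windows, and the interval of the difference, -0.739 to 1.57 points, included 0 and its sign changed with each replicate left out.

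The Sox core ACAAT was in 27.8% of member windows, against 24.7% of single-strand windows and 28.4% of all optimal windows. The difference was 3.13 points (0.0846 to 6.28), and 3.598, 4.57 and 1.82 points in the replicates (mean 3.33 ± 1.40, SD, n = 3). Beside the members, 1000 bp away, ACAAT was in 19.5% of windows, against 24.7% beside single-strand summits. In 50 bp bins, ACAAT matches were not most frequent at the summit itself. There were 16.8 per 100 members in the central bin, 20.7 in the bin at -150 bp and 20.3 at 100 bp. At -500 and 500 bp there were 12.5 and 11.3. Single-strand summits had 15.1 per 100 in the central bin, 15.5 at -150 bp and 16.7 at 100 bp. The difference at the summits was 0.779 points without replicate 2 and 1.35 without replicate 3. The longer AACAAT was in 13.5% of members and 11.1% of single-strand windows. The related ACAAAG went the other way, with 9.37% and 12.5%, and with differences of -1.99, -3.17 and -3.63 points in the replicates.

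GAGAGA, the word bound by the GAGA factor, was rare at members, in 15 windows or 1.35%, against 6.93% of single-strand windows and 5.16% of all optimal windows. The differences in the replicates were -3.91, -6.44 and -6.50 points. The TATA box word TATAAA was in 18.6% of members, against 13.0% of single-strand and 17.6% of all optimal windows, with replicate differences of 3.97, 6.45 and 5.86 points. Among windows of 30 to 40% GC only, 393 of members and 829 of single-strand summits, the differences were 15.3 points for CGATA, 4.74 for ACAAT, 2.07 for the DRE, 1.33 for TATAAA and -2.12 for GAGAGA. For ACAAAG it was -0.0752 there. Each motif difference named here that had 1 sign in 3 of 3 replicates gave p = 0.25 in the exact sign-flip permutation test, the smallest possible.

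**Figure D5:**
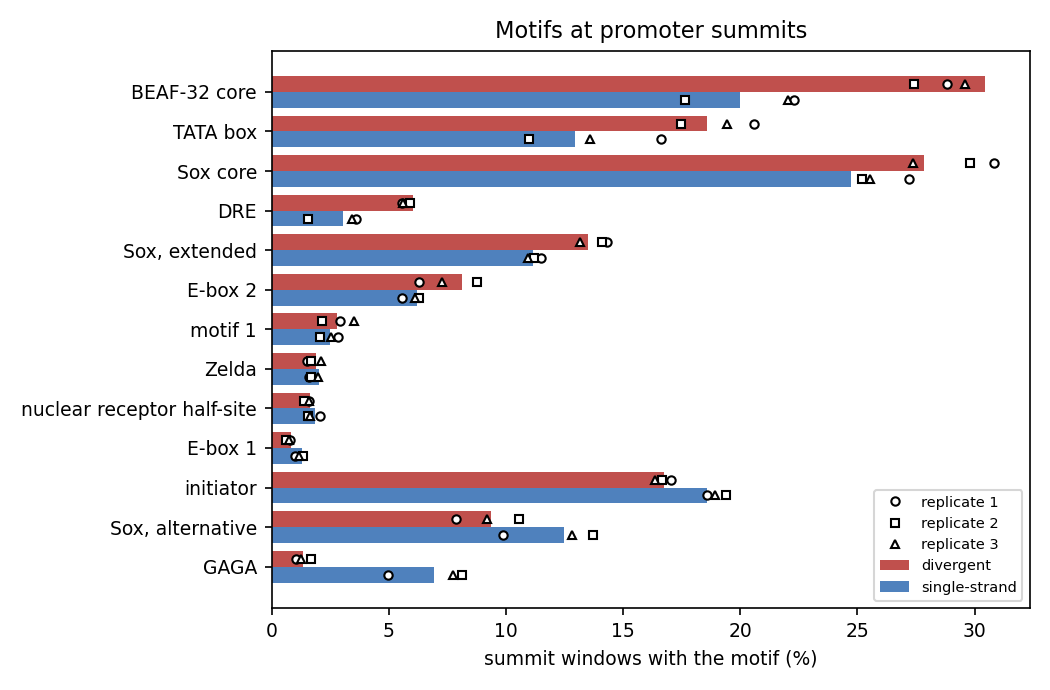
Percentage of summit windows, 50 bp to either side, with each word (horizontal axis) for 13 motifs (rows, ordered by the difference), at divergent (red) and single-strand (blue) summits of the optimal list, with open symbols for the replicates' own top peaks. The BEAF-32 core stands at 30.5% of divergent and 20% of single-strand windows, and the GAGA word at 1.35% and 6.93%.

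The members themselves differed along their signal. CGATA was in 21.8% of the 500 strongest members and in 38.4% of the 500 weakest. In the replicates' own lists of divergent summits the corresponding shares were 20.4%, 23.6% and 22.4% of the strongest 500, against 34.0%, 31.0% and 33.4% of the weakest, which do not overlap. The DRE had 3.8% and 8.20% in the pooled list, and CAGCTG, an E-box, had 5% and 11.2%. TATAAA ran the other way, with 22.6% of the strongest and 14.8% of the weakest. The median GC content was 32.7% in the strongest and 38.6% in the weakest. The strongest lay a median of 87 bp from the nearest coding start and the weakest 57 bp. The part of GC content or of distance in the motif differences along the signal was not tested. ACAAT was in 29.8% of the strongest and 26.4% of the weakest, and in replicate 1 it was in 29.2% and 29.8%. The replicates share most of these sites, so their lists are not independent sets of promoters. Divergent pooled summits outside the optimal list had CGATA in 29.7% of windows, ACAAT in 25.5% and the DRE in 5.24%, with a median GC content of 37.6%.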

How the data were processed

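ChIP-seq with an antibody to GFP was performed on 3 biological replicates of whole white prepupae, 1 library each, per the labels; these form the only group, and the spread between them is that of these libraries. The authors deposited peak lists with a signal and a −log10 q value per peak and the offset of the summit from the peak's start, per the deposited text descriptions and file headers. The authors' signal was used to rank peaks within a list, and the −log10 q value was not tested. A control library entered the authors' calls and was not analysed here, nor were the dm3 lists. For the aligner, the peak caller and the reproducibility threshold nothing is stated in the sources used here. Read depth is unknown. The 9316 optimal peaks were exactly the top of the pooled relaxed list, which like each replicate's holds 30000 peaks.

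Starts were taken from Ensembl release 115 (BDGP6.54) and sequence from RefSeq Release 6, with Python 3.11.15, numpy 2.4.6 and pandas 2.3.3. Shares have Wilson intervals and differences Newcombe intervals. Peaks and genes are not independent, so no p-value was computed over them. Replicates were compared by an exact two-sided sign-flip permutation test. Class rule, motif search, intervals and test were checked on made-up data. A pair was named by the nearest start on each strand. Named were the 25 strongest members, the 2 best of each gene group, the 5 weakest, the 5 strongest outside the list, and the examples said to be chosen otherwise. Not all of them are described. Gene groups were formed from symbols. Members, groups and motifs were chosen with earlier results of these data known. Alternatives covered the promoter window, 1 start per gene, 1 summit per promoter, the distance for shared summits, motif window, peak set and each replicate left out.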

Additional observations from a re-analysis of the deposited data

How the results depend on the processing

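Divergent summits exceeded single-strand summits in optimal share, signal percentile and ACAAT and DRE share, and head-to-head pairs exceeded other genes in bound share, under every alternative run, with sizes that moved as follows. With a promoter window of 250 bp the difference was 30.3 points in optimal share, 20.1 in percentile, 13.7 in recurrence in all 3 replicates and 0.580 for the DRE. Among the stronger optimal peaks, those above the median signal, it was 3.68 in percentile and 24.0 points for pairs. Counted per gene instead of per pair, chosen after seeing the data, it was 28.0 points. Recurrence reversed with the full relaxed lists, to -0.301 points. Leaving out each replicate in turn gave 17.5 to 23.9 points for optimal share, 5.65 to 12.2 for percentile, 0.943 to 10.5 for recurrence, 25.5 to 29.0 for pairs and 0.779 to 2.90 for ACAAT. The lowest value came without replicate 1 for optimal share, percentile and recurrence, without replicate 3 for pairs and without replicate 2 for ACAAT. The sets for pairs held 6616, 6677 and 6050 summits without replicates 1, 2 and 3, fewer than the main list. ACAAT gave 1.42 points in windows of 51 bp, 5.05 in 201 bp and 4.74 in windows of 30 to 40% GC, the last chosen after seeing the data. The DRE gave 1.57 points in 51 bp, 6.69 in 201 bp and 1.60 for nearest starts within 150 bp. The difference for CGATA kept its sign and ranged from 5.53 to 15.6 points. Of the other words, 4 with small differences changed sign. Motif 1 gave -0.407 with 1 start per gene, -0.870 for starts within 150 bp, -0.472 among the stronger peaks, -0.342 in 51 bp and -1.42 to -0.689 without 1 replicate. AGGTCA gave 1.02 at 250 bp, 0.0300 within 150 bp, 0.0699 with 1 summit per promoter, 0.127 in 201 bp and 0.0792 at 30 to 40% GC. CAGGTA gave 0.0791 with 1 start per gene and 0.125 within 150 bp, and CACGTG gave 0.353 in 201 bp. The cause of these changes was not tested. With read depth unknown, weak peaks cannot be told from noise beyond their rank.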
